A study of Mus musculus with 6 samples.

Results

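Proneural and early neuronal transcription factors were followed as a group of 7 genes, Neurog1, Neurog2, Neurod2, Sox4, Sox11, Myt1l and Bcl11b, in mouse neural stem cells with and without Dnmt3a, a de novo DNA methyltransferase. The genes were picked by name, as regulators that act from the choice of a neuronal fate to early neuronal differentiation. The choice was made with earlier results of these data known, so member shares set beside those of all genes are descriptions. The members are 7 of the 28786 gene names on the array, and all 7 were bright enough to be tested. They were read by 17 probes, 13 of which were bright enough to be tested.

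The cells were cultures from the subventricular zone of mice at postnatal day 14 to 21, either wild type (WT) or Dnmt3a-null (KO). The sources used here do not name the allele. Cells were grown with FGF-2 and EGF at 10 ng/ml each and either harvested while proliferating, or replated with mitogens for 2 days and then left for 3 days without them, called differentiating here. Each of 6 arrays with 2 colours held WT RNA in one dye and KO RNA in the other, with 4 biological replicates in the proliferating and 2 in the differentiating condition, and with the dyes exchanged between arrays. The labels do not say whether replicates came from separate animals, so the p-values measure the spread between these arrays.

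Proneural factors are basic helix-loop-helix (bHLH) proteins that pair with E proteins, bind E-box sequences and commit neural progenitors to a neuronal fate. Neurogenins act first and switch on later bHLH factors of the NeuroD family, while Sox4 and Sox11 of the SoxC group turn on neuronal genes in committed cells. Myt1l, a zinc finger protein, represses genes of other lineages in neurons, and Bcl11b (Ctip2), another zinc finger protein, acts in young and maturing neurons. Hes and Id proteins oppose proneural factors, and the postnatal subventricular zone supplies new interneurons to the olfactory bulb throughout life.

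Since the KO cells lack a DNA methyltransferase, the sequence before the start of each gene is shown for 3 members called lower in differentiating KO cells. It is also shown for Neurog1, which did not pass in any comparison. Myt1l, which was called lower too, has several start sites and is described without its sequence. Each is the 250 bases before the RefSeq transcript start (build GRCm38.p6), read 5′ to 3′ on the gene's strand, with CG dinucleotides, the sites this enzyme class mainly methylates, in capitals. Neurog1 (chr13:56252181-56252430, minus strand) had 29 CG dinucleotides, Neurog2 (chr3:127632886-127633135, plus strand) 8, Neurod2 (chr11:98329646-98329895, minus strand) 11 and Bcl11b (chr12:108003415-108003664, minus strand) 9.
Neurog1: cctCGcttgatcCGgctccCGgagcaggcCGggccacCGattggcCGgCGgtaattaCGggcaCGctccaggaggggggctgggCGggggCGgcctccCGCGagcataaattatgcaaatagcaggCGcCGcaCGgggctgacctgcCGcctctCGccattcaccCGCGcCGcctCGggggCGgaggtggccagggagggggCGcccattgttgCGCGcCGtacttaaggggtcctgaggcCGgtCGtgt
Neurog2: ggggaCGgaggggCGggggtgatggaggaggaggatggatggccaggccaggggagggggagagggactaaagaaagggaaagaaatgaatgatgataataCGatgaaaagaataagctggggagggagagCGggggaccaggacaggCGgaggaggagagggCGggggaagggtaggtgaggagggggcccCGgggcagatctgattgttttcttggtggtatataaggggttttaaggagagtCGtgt
Neurod2: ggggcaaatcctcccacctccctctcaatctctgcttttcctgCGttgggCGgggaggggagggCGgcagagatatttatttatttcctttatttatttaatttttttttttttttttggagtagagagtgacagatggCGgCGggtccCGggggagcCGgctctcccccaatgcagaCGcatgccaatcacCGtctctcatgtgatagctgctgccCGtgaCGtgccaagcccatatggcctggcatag
Bcl11b: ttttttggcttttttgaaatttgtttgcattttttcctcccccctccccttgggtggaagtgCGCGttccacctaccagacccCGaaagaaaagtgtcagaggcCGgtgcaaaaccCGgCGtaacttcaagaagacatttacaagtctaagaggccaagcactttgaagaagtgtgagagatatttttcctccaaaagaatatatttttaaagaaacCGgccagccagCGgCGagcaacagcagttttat

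All 7 members matched the RefSeq promoter table, with 11 start sites in all. Over all 32851 windows of 27025 genes, the median number of CG dinucleotides was 6 and the quartiles were 2 and 16. Neurog1 stood high in that distribution, as 6.78% of all windows held at least as many. For Neurog2, Neurod2 and Bcl11b the shares were 43.0%, 35.6% and 40.3%. Sox4 had 11 (35.6%) and Sox11 had 17 (23.5%), while the 5 start sites of Myt1l, a gene with several first exons, had between 3 and 12. The E-box motif CANNTG, which reads as itself on the other strand, was in 7 of the 11 member windows, against 66.2% of all windows. Neurod2 held 3 matches, Sox11 2 and Sox4 1, whereas the windows of Neurog1, Neurog2 and Bcl11b held none. A match is a description of these letters only. DNA methylation was not measured here.

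Of all probes, 52.0% to 58.8% in a channel gave signal well above background, which left 18062 genes to be tested. Dnmt3a itself had less signal in KO cells on all 6 arrays. Its mean log2 ratio of KO over WT was −0.96 ± 0.22 (SD, n = 4) in proliferating and −1.38 ± 0.14 (SD, n = 2) in differentiating cells (limma adjusted p = 0.0219 and 0.0154), and which of its probes lie in the deleted part is not known here. The stem cell markers Nes and Sox2 were well above background in 12 of 12 channels, as were the astrocyte marker Gfap and the oligodendrocyte lineage marker Olig2. The microglial markers Aif1, Cx3cr1, Csf1r and Itgam were so in 0 of 12. Proliferating replicates 3 and 4 stood apart in sex-linked genes. On the other 4 arrays Xist was not well above background in either RNA, and the Y-linked Ddx3y was in both. On replicates 3 and 4 the log2 level of Xist was 12.69 and 13.34 for WT RNA and 11.28 and 11.06 for KO RNA. Ddx3y was there not well above background in WT RNA but was in KO RNA, at 8.51 and 8.84. WT and KO RNA thus differed in sex-linked signal within these arrays. Member and list results are therefore given without these arrays too where the call or direction differs. Without them Dnmt3a still passed, with an adjusted p of 0.0463 while proliferating and of 0.00978 after withdrawal.

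The first comparison asked what the loss of Dnmt3a changed in these regulators while the cells were dividing. None of the 7 members passed limma's test in proliferating cells (adjusted p under 0.05 over all genes tested), against 0.952% of all genes (0.615% higher and 0.338% lower). An unadjusted p under 0.05 was reached by 4 of the 7, against 16% of all genes. Neurog2 and Sox4 had lower signal in KO RNA on all 4 arrays, whereas Myt1l and Bcl11b had higher signal on all 4. Neurog1 and Neurod2 lay close to equal signal, and the ratio of Sox11 took both signs. Values below are log2 ratios of KO over WT, as mean ± SD over the arrays, and an offset of 50 added to each signal pulls the ratios of dim genes toward 0.

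Neurog2, the neurogenin of dorsal forebrain progenitors, had ratios of −0.11, −0.87, −0.36 and −1.14 on proliferating replicates 1 to 4. All 4 were below 0 and they differed widely in size. The mean was −0.62 ± 0.47 (n = 4, adjusted p = 0.0692). Its KO signal was not well above background on any of the 4 arrays, against 3 of 4 in WT RNA, so the measured means give at least 1.53-fold lower signal in KO cells. Neurog2 passed the filter on dim probes only through WT channels. Its p-values are thus a description. They were under the threshold with Agilent's processed signals (−1.86, adjusted p = 0.0470), with no offset (−1.47, adjusted p = 0.0225) and with median centring (−0.77, adjusted p = 0.0381).

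Neurog1, the second neurogenin, had ratios of −0.037, −0.021, −0.016 and −0.035. These values barely left equal signal, with a mean of −0.027 ± 0.010 (n = 4, 95% interval −0.19 to 0.14, adjusted p = 0.90). Neurod2, a later bHLH factor of differentiating neurons, had ratios of −0.10, −0.007, −0.12 and −0.087. Its mean was −0.079 ± 0.050 (n = 4, 95% interval −0.23 to 0.073, adjusted p = 0.600).

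The SoxC genes were bright in every channel. Sox4 had ratios of −0.54, −0.43, −1.01 and −0.25, all below 0 and largest in size on replicate 3, with a mean of −0.56 ± 0.32 (n = 4, adjusted p = 0.119). Sox11, the closely related SoxC gene, had 0.48, −0.45, −0.30 and −0.82. Replicate 1 alone was above 0, and the mean of −0.27 ± 0.55 (n = 4, adjusted p = 0.416) became 0.013 without replicates 3 and 4.

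Myt1l had ratios of 0.22, 0.57, 0.35 and 0.29, which were above 0 on each array. Its mean was 0.36 ± 0.15 (n = 4, adjusted p = 0.120). The WT signal was not well above background on any of the 4 arrays, and the KO signal was well above background only on replicate 2. The KO mean thus rests mostly on signals not well above background, and no bound on the fold is given. With no offset, Myt1l passed at 1.05 (adjusted p = 0.0348). Bcl11b had ratios of 0.14, 0.62, 0.63 and 0.62. Replicates 2 to 4 lay together and replicate 1 lay below them, and the mean was 0.50 ± 0.24 (n = 4, adjusted p = 0.111).

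**Figure D1:**
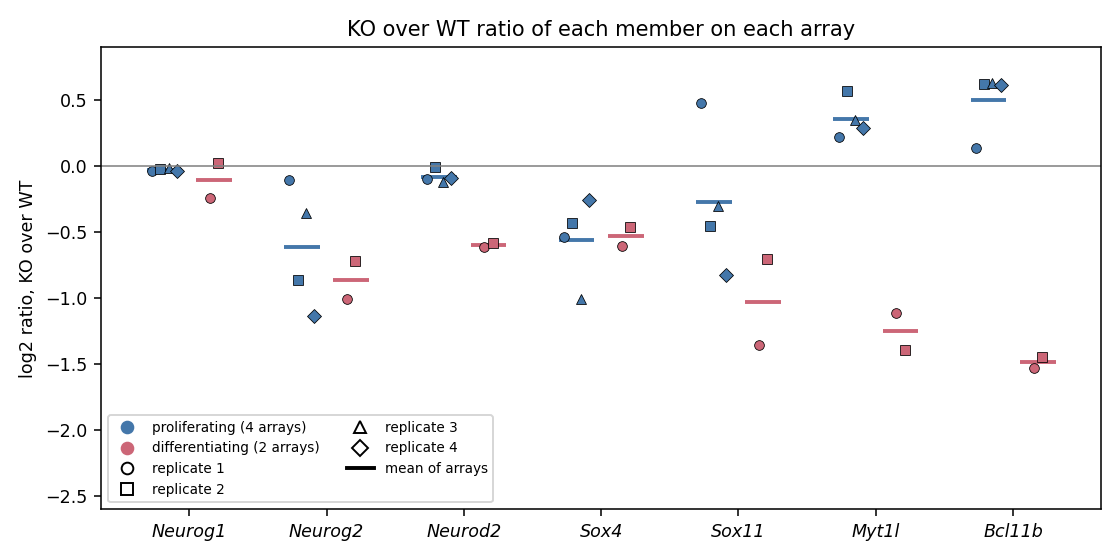
Log2 ratio of KO over WT signal (vertical axis) for the 7 members (horizontal axis) on each array. Blue points are the 4 proliferating and red points the 2 differentiating arrays, point shape gives the replicate and horizontal lines are means. Myt1l and Bcl11b lie above 0 on the 4 proliferating arrays and below 0 on both differentiating arrays.

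The next comparison asked how KO and WT cells differed once mitogens had been withdrawn. Neurog2, Neurod2, Myt1l and Bcl11b were called lower in differentiating KO cells, between 1.51-fold and 2.80-fold. These 4 of 7 members passed, all lower, against 3.08% of all genes in either direction (2.18% higher and 0.902% lower). Neurog2 passed the filter on dim probes only through WT channels, where it was high, so its place in this count is a description. Sox4 and Sox11 also had lower KO signal on both arrays without passing, and Neurog1 took both signs. In all, 6 of 7 members were below 0 on both arrays, against 30.5% of all genes.

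Bcl11b had the largest fold of the 7 as processed here, though Myt1l had a larger one with Agilent's processed signals. Its WT log2 levels were 8.31 and 8.30 on differentiating replicates 1 and 2 and its KO levels 6.79 and 6.85. Both KO channels lay below both WT channels. The ratios were −1.53 and −1.45, with a mean of −1.49 ± 0.057 (n = 2), which was 2.80-fold lower in KO cells (limma adjusted p = 0.0158).

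Myt1l had WT levels of 7.96 and 7.47 and KO levels of 6.85 and 6.08. The groups did not overlap, and 2 of 2 WT channels were well above background against 1 of 2 KO channels. The ratios were −1.11 and −1.39, with a mean of −1.25 ± 0.20 (n = 2), or 2.38-fold lower (limma adjusted p = 0.0147). Myt1l and Bcl11b passed in each alternative that kept both differentiating arrays, and both missed the threshold without differentiating replicate 1 or 2, when 1 array was left in the group (adjusted p between 0.238 and 0.319).

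Neurog2 had WT levels of 7.38 and 6.93 and KO levels of 6.38 and 6.21. The groups did not overlap, and the KO signal was not well above background on either array. Its ratios were −1.0 and −0.72, with a mean of −0.86 ± 0.20 (n = 2) and at least 1.81-fold lower signal in KO cells (limma adjusted p = 0.0450). Neurog2 entered the test only through WT channels, where it was high, so this call is a description. Neurod2 had WT levels of 7.85 and 7.58 and KO levels of 7.23 and 7.00. Again both KO values lay below both WT values, here with all 4 channels well above background. Its ratios were −0.61 and −0.58, with a mean of −0.60 ± 0.022 (n = 2), or 1.51-fold lower (limma adjusted p = 0.0338).

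The calls of Neurog2 and Neurod2 were close to the threshold, and leaving out 1 array often ended them. Without proliferating replicate 2, 3 or 4, Neurog2 had an adjusted p of 0.0774, 0.0669 and 0.0584. Without proliferating replicate 1, 2, 3 or 4, Neurod2 had 0.0518, 0.0599, 0.0604 and 0.0656, and without both replicates 3 and 4 it had 0.0634. Without differentiating replicate 1 or 2 neither gene passed. Neurog2 also missed with no filter on dim probes (0.0609) and with no dye term (0.139), and Neurod2 with median centring (0.0779).

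The SoxC genes kept a high signal in both genotypes. Sox11 had WT levels of 11.59 and 11.65 and KO levels of 10.23 and 10.94, with no overlap. Its ratios were −1.36 and −0.71, with a mean of −1.03 ± 0.46 (n = 2, adjusted p = 0.0659). Sox11 passed with the mean of its probes (−0.60, adjusted p = 0.0433), with array weights (0.0105), without proliferating replicate 1 (0.0405) or 3 (0.0466), without both replicates 3 and 4 (0.0192), and with the differentiating arrays fitted alone (0.0145). Sox4 had ratios of −0.60 and −0.46, with a mean of −0.53 ± 0.10 (n = 2, adjusted p = 0.187). Neurog1 had −0.24 and 0.024, with a mean of −0.11 ± 0.19 (n = 2, 95% interval −0.34 to 0.13, adjusted p = 0.649).

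For 6 of the 7 members the WT and KO levels did not overlap in differentiating cells, against 32.9% of all genes with 2 channels a group. In proliferating cells all 7 overlapped, while 2.57% of all genes did not. The sizes of the ratios depend on how background was treated. With Agilent's processed signals the 4 genes called lower had differentiating ratios of −3.22 (Myt1l), −2.77 (Bcl11b), −2.38 (Neurog2) and −1.16 (Neurod2). These were over 1.5 times the values above, and all 4 passed.

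**Figure D2:**
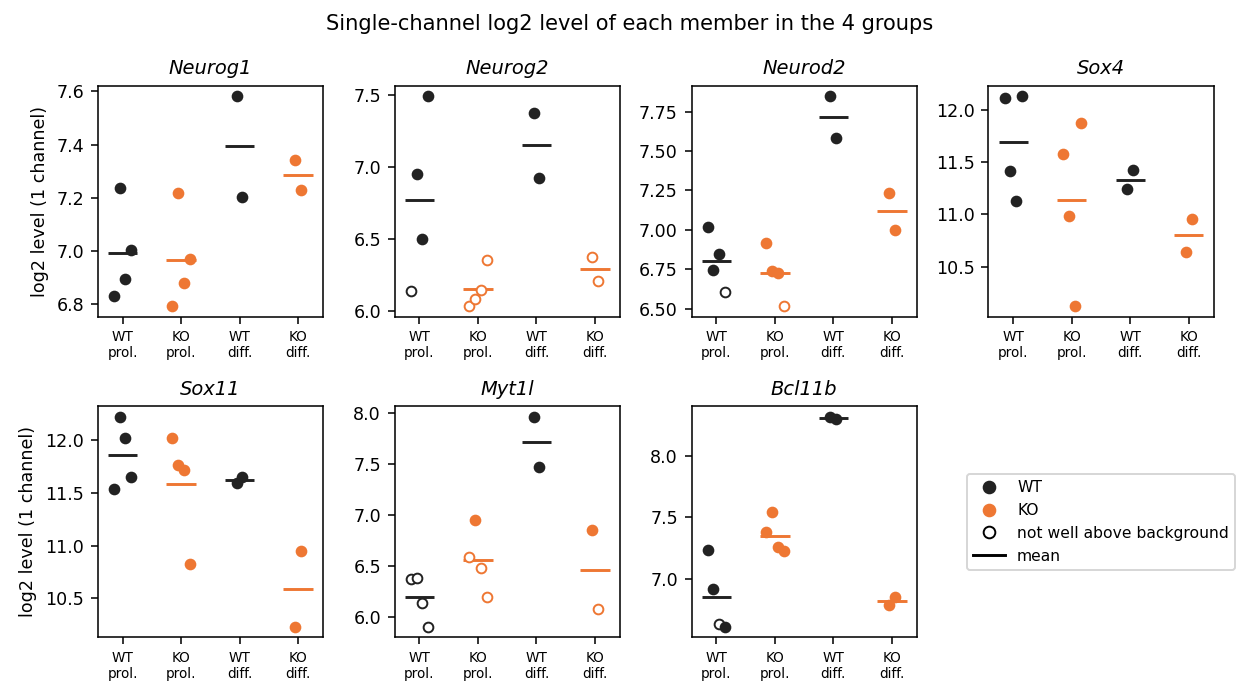
Single-channel log2 level (vertical axes, scaled per gene) of each member in WT (black) and KO (orange) RNA of proliferating (prol.) and differentiating (diff.) cells. Each point is 1 channel, open points were not well above background and lines are means. WT differentiating cells have the highest mean of each member but Sox4 and Sox11.

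Markers of some cell types also differed between the genotypes. Their counts stand beside 2.18% of all genes called higher and 0.902% called lower in differentiating KO cells. Of the 5 young neuron markers, Tubb3 fell and none rose in differentiating KO cells, and their summed log2 level was 13.74 to 13.90 in WT and 12.63 to 12.73 in KO channels. All 4 markers of dividing cells rose, and their summed level was 9.39 to 9.69 in WT and 11.14 to 11.60 in KO channels. Of the 10 oligodendrocyte lineage markers 3 rose, with a summed level of 15.98 to 16.36 in WT and 17.34 to 17.67 in KO. The 7 astrocyte markers had 1 that rose and overlapping sums of 16.67 to 16.90 and 16.68 to 16.99. Of 3 tested ependymal markers 2 rose, with sums of 9.86 to 10.04 in WT and 10.72 to 11.47 in KO. Neither of 2 tested fibroblast markers passed, with sums of 7.64 to 7.90 and 8.34 to 8.84. None of 3 tested endothelial and mural markers passed, with sums of 10.66 to 11.03 and 10.26 to 10.63, and of the 6 stem and progenitor markers 1 rose, with sums of 16.37 to 16.75 and 16.40 to 16.43. Without proliferating replicates 3 and 4 3 young neuron markers and 1 stem and progenitor marker fell, and 6 oligodendrocyte lineage, 3 astrocyte, 1 fibroblast and 1 endothelial or mural marker rose. The count over all genes in differentiating cells rose in that setting too. The part of these markers in the members' differences was not tested. In these mixed cultures fewer cells of a type and less RNA per cell cannot be told apart.

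Whether the effect of the loss of Dnmt3a differed between the conditions was tested in the same fit, as the differentiating minus the proliferating ratio. The ratios of Myt1l and Bcl11b changed sign, from above 0 on each proliferating array to below 0 on both differentiating arrays, a pattern shared by 310 genes or 1.72% of all tested. Neither had passed in proliferating cells (limma adjusted p = 0.120 and 0.111). The proliferating Myt1l signal was well above background only in KO RNA of replicate 2. None of the 7 members passed the test of the difference, against 0.0498% of all genes (9 genes, 0.0332% with a positive and 0.0166% with a negative difference). An unadjusted p under 0.05 was reached by 4 of the 7, against 12.1% of all genes. Bcl11b had a difference of −1.99 (SE 0.18, 95% interval −2.42 to −1.55, limma adjusted p = 0.0557). Myt1l had −1.61 (SE 0.13, 95% interval −1.94 to −1.28, limma adjusted p = 0.0507). They ranked 15 and 11 of 18062 genes by p, just outside the threshold.

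Both genes fell on the other side of the threshold under several alternatives. With no dye term and with array weights, the adjusted p of Myt1l was 0.0252 and 0.0180 and that of Bcl11b 0.0214 and 0.0180. In the fit over single probes they were 0.0482 and 0.0483. With any 1 of the 6 arrays left out neither passed.

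For Neurod2 the difference was −0.52 (SE 0.11, adjusted p = 0.166) and for Sox11 −0.76 (SE 0.25, adjusted p = 0.323). Neurog2 had lower KO signal in both conditions, and the difference between them was −0.24 (SE 0.17, 95% interval −0.68 to 0.19, adjusted p = 0.669). Sox4 had nearly the same ratio in both, with a difference of 0.025 (SE 0.20, 95% interval −0.48 to 0.53, adjusted p = 0.984), an interval that allows a change as large as the ratios themselves. For Neurog1 it was −0.081 (SE 0.12, adjusted p = 0.858).

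The change from proliferating to differentiating cells was then read within each genotype from single channels. In WT cells Neurod2, Myt1l and Bcl11b rose after mitogen withdrawal, between 1.88-fold and at least 2.76-fold. These 3 of 7 members passed, all higher, against 14.0% of all genes in either direction (7.41% higher and 6.59% lower). The levels of the same 3 did not overlap between the conditions, against 41.6% of all genes. In KO cells none of the 7 passed, against 14.4% of all genes (7.68% higher and 6.74% lower). An unadjusted p under 0.05 was reached by 3 of the 7, against 32.7% of all genes. KO levels of Neurog1, Neurod2 and Bcl11b did not overlap between the conditions, against 44.0% of all genes. All proliferating arrays were on 1 slide and both differentiating arrays on another. Slide and condition thus cannot be told apart in these 2 comparisons either.

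Some cell type markers changed after withdrawal as well. Of all genes, 7.41% were called higher and 6.59% lower in WT cells, and 7.68% and 6.74% in KO cells. In WT cells the 4 markers of dividing cells fell, from a summed log2 level of 12.94 to 14.72 to one of 9.39 to 9.69. Of the 5 young neuron markers 4 were called higher (2 without proliferating replicates 3 and 4). Stmn2, counted among the 4, entered the test only through the 2 WT differentiating channels and is a description with no test. The summed level of the 5 markers was 10.74 to 12.11 before and 13.74 to 13.90 after withdrawal. Of the 7 astrocyte markers 3 rose (1 without proliferating replicates 3 and 4), with sums of 15.17 to 15.82 and 16.67 to 16.90. In KO cells the 4 markers of dividing cells fell as well, from 13.83 to 15.03 to 11.14 to 11.60, 2 of 5 young neuron markers rose (without these replicates 1 rose and 1 fell) and 5 of 7 astrocyte markers rose. Their part in the members' changes was not tested.

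Bcl11b in WT cells had levels of 7.24, 6.92, 6.63 and 6.61 while proliferating. The WT differentiating levels of 8.31 and 8.30 lay above all of them. The rise was 1.46 on the log2 scale (SE 0.22), or 2.74-fold (limma adjusted p = 0.00410). In KO cells Bcl11b started from 7.38, 7.54, 7.26 and 7.23. Both KO differentiating levels lay below these, and the change was −0.53 (SE 0.22, adjusted p = 0.125).

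Myt1l in WT cells had proliferating levels of 6.37, 6.38, 6.13 and 5.91, none of them well above background. The WT differentiating levels were both higher, with a difference of 1.52 (SE 0.24, limma adjusted p = 0.00487), at least 2.76-fold. In KO cells the proliferating levels were 6.59, 6.96, 6.48 and 6.20. They overlapped the KO differentiating levels, and the change was −0.093 (SE 0.24, adjusted p = 0.818).

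Neurod2 in WT cells had proliferating levels of 7.02, 6.75, 6.85 and 6.60, all below both differentiating levels. It rose by 0.91 (SE 0.15), or 1.88-fold (limma adjusted p = 0.00674). In KO cells the proliferating levels were 6.91, 6.74, 6.73 and 6.52, also below both differentiating levels, and the change was 0.39 (SE 0.15, adjusted p = 0.112), or 0.90 with Agilent's processed signals, where it passed (adjusted p = 0.0449). Without proliferating replicates 3 and 4, Myt1l still passed in WT cells (0.0477), while Bcl11b (0.0947) and Neurod2 (0.0880) did not. Without differentiating replicate 1 none of the 3 passed (0.0911 to 0.126).

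The other members did not pass in either genotype. Neurog1 changed by 0.40 (SE 0.17, adjusted p = 0.135) in WT and 0.32 (SE 0.17, adjusted p = 0.214) in KO cells. Neurog2 changed by 0.38 (SE 0.27, adjusted p = 0.366) in WT cells and was not well above background in either KO condition. Sox4 changed by −0.37 (SE 0.40, adjusted p = 0.569) and −0.34 (SE 0.40, adjusted p = 0.587). Sox11 changed by −0.24 (SE 0.33, adjusted p = 0.664) in WT and −0.99 (SE 0.33, adjusted p = 0.0702) in KO cells. The latter passed with the mean of its probes (−1.07, adjusted p = 0.0112), without proliferating replicate 4 (−1.20, adjusted p = 0.0217) and without both replicates 3 and 4 (−1.30, adjusted p = 0.0433). The KO comparison, the WT comparison and the KO over WT ratios use the same channels, so they are not independent of each other.

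Probe positions, on build mm7 as in the array's annotation, show which part of each transcript was read. Neurog1 was read at chr13:55340531-55340590, Neurog2 at chr3:127472378-127472437, Sox4 at chr13:28317744-28317803 and Bcl11b at chr12:105437087-105437146, by 1 probe each. Neurod2 had a tested probe at chr11:98435629-98435676. A second, dim one at chr11:98436392-98436451 was not tested and had a mean differentiating ratio of 0.018.

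Sox11 had 6 probes over 7409 bases of chromosome 12, all on the minus strand and all tested. In differentiating cells the mean ratio was −1.03 at the probe nearest the 3′ end (chr12:25170366-25170425) and −1.03, −0.60, −0.41, −0.37 and −0.17 at 522, 3316, 5842, 6048 and 7409 bases from it. The mean loss of KO signal was thus smaller toward the 5′ end. On replicate 2 the first pair stood in the opposite order, at −0.71 and −0.77. With Agilent's processed signals the 6 values were −1.09, −1.13, −0.86, −0.59, −0.51 and −0.39, in the same order but for the first pair. None of the 6 probes passed (adjusted p between 0.0676 and 0.632), and in proliferating cells their means were −0.27, −0.25, −0.11, −0.093, −0.090 and −0.30, in the same order but for the probe nearest the 5′ end. The 2 probes nearest the 3′ end, which include the one used for the gene, and the probe at 6048 bases were not matched to Sox11 through RefSeq. They carry the name in the array's annotation. The probes also differ in brightness, from a mean log2 intensity of 11.52 at the 3′ end to 7.60 at the 5′ end, and the part of this and of the position was not tested.

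Myt1l had 5 probes over 137636 bases of chromosome 12. The probe used for the gene (chr12:27760601-27760660) is the brightest and the one matched through RefSeq. The other tested probe (chr12:27762729-27762788) was well above background only in the 2 WT differentiating channels. It entered the test only through them. Its differentiating mean was −0.59 ± 0.046 (n = 2) and its proliferating mean 0.17 ± 0.13 (n = 4). These have the same signs as the means of the first probe, as a description with no test. The 3 dim probes were not tested, and their differentiating means of −0.25, −0.11 and −0.18 were below 0 on both arrays.

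**Figure D3:**
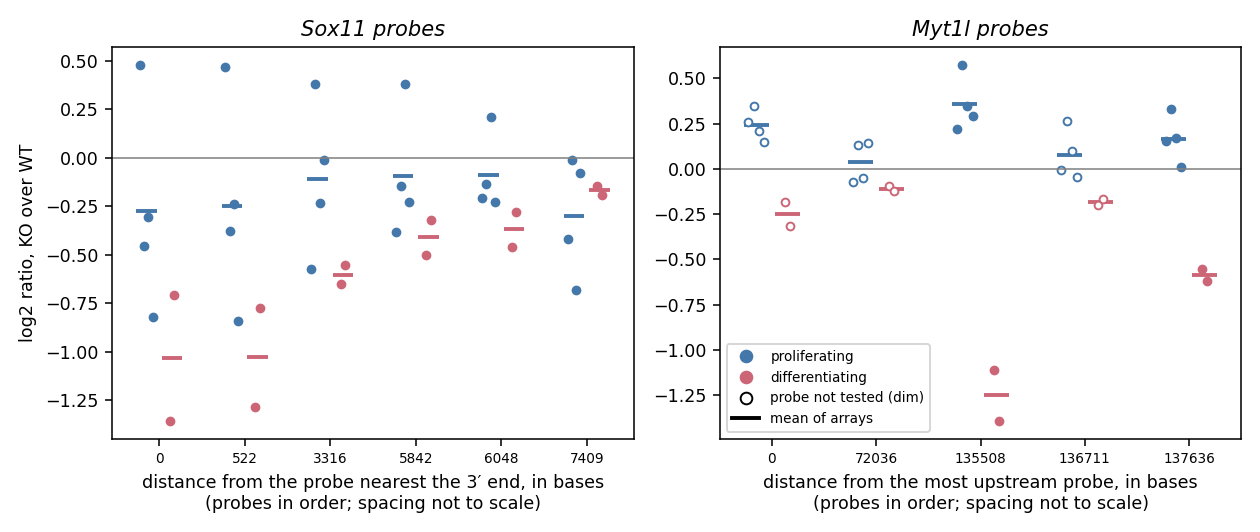
Log2 ratio of KO over WT signal (vertical axis) at each Sox11 probe (left) and Myt1l probe (right), in order along the gene. Points are arrays (blue proliferating, red differentiating), lines are means and open points are probes too dim to be tested. The differentiating means of Sox11 shrink from −1.03 to −0.17 away from the 3′ end.

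Other factors of the same programme were read from a list of 27 related neurogenic transcription factors, 19 of which were bright enough to be tested. In proliferating cells 0 rose and 0 fell by limma's test, where 0.952% of all genes passed. The median was −0.045 against −0.0062 over all genes. The smallest p was that of Pax6, a regulator of neurogenic progenitors, at −1.50 ± 0.75 (n = 4, adjusted p = 0.0503), followed by Zbtb18, a repressor active in neuronal differentiation, at −0.36 ± 0.16 (n = 4, adjusted p = 0.133). In differentiating cells 0 fell and 1 was called higher, St18, a relative of Myt1l, where 0.902% of all genes were lower and 2.18% higher. St18 was well above background only in the 2 KO differentiating channels and entered the test only through them. Its signal, 1.71-fold higher there than in WT cells by the measured means, is thus a description with no test. The median was −0.13 against −0.0072 over all genes. After mitogen withdrawal Scrt2, a repressor of neuronal precursors, rose in WT cells (0.98, adjusted p = 0.00698), and the St18 signal of KO cells was at least 1.96-fold higher, again as a description. Without proliferating replicates 3 and 4 the call of Scrt2 ended (adjusted p = 0.140), and in differentiating KO cells Insm1 (−1.50, adjusted p = 0.00712), Pax6 (−1.36, adjusted p = 0.0142) and Ebf3 (−1.18, adjusted p = 0.0236) passed as lower. The count over all genes in differentiating cells rose in that setting too.

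The E proteins Tcf3, Tcf4 and Tcf12, the dimer partners of proneural factors, were all tested. None passed in either KO over WT comparison. Tcf4 had the smallest p in differentiating cells, at −0.68 ± 0.11 (n = 2, adjusted p = 0.0619), and Tcf12 in proliferating cells, at 0.34 ± 0.52 (n = 4, adjusted p = 0.296). After mitogen withdrawal Tcf3 fell in WT cells (−0.87, adjusted p = 0.0275) and in KO cells (−0.99, adjusted p = 0.0173). Tcf12 fell in KO cells (−1.21, adjusted p = 0.0434). Without proliferating replicates 3 and 4 these 3 calls ended (adjusted p between 0.0524 and 0.0996).

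Of 14 repressors of proneural factors or of neuronal genes, all tested, 2 rose and 0 fell in differentiating KO cells. Both were Id genes, whose products bind E proteins and keep them from DNA. Id1 rose by 3.07 ± 0.51 (n = 2, adjusted p = 0.0330) and Id3 by 2.74 ± 0.48 (n = 2, adjusted p = 0.00771). The list's median was 0.066 against −0.0072 over all genes. In proliferating cells none passed, and Id3 had the smallest p at 0.70 ± 0.53 (n = 4, adjusted p = 0.0567), followed by the Notch target Hes1 at 0.40 ± 0.32 (n = 4, adjusted p = 0.0962). After withdrawal in WT cells Id3 fell (−2.71, adjusted p = 0.00184), Hes1 fell (−1.45, adjusted p = 0.0437) and Ctdsp1, a phosphatase that acts with the repressor Rest, rose (0.84, adjusted p = 0.0109). In KO cells Hes1 (−1.92, adjusted p = 0.0164) and Rcor1 (−0.68, adjusted p = 0.0273) fell and Ctdsp1 (0.94, adjusted p = 0.00761) and Id4 (3.8, adjusted p = 0.0451) rose. Without proliferating replicates 3 and 4 the calls of Ctdsp1 in WT (adjusted p = 0.0986) and Rcor1 in KO cells (0.113) ended, Id4 passed as higher in WT cells too (adjusted p = 0.0464), and the other calls of this list held.

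Early neuronal genes that act after or beside these factors were read from a list of 18, all tested, which shares its 5 young neuron markers with the marker list above. In differentiating KO cells 5 fell and 0 rose, with a median of −0.33 against −0.0072 over all genes. Syt1, a calcium sensor of synaptic vesicles, had −2.50 ± 0.52 (n = 2, adjusted p = 0.0127), Tubb3, a neuronal tubulin, −1.56 ± 0.17 (n = 2, adjusted p = 0.0147), and Map2, a dendritic microtubule protein, −0.95 ± 0.13 (n = 2, adjusted p = 0.0159). Elavl2, a neuronal RNA-binding protein, had −1.57 ± 0.64 (n = 2, adjusted p = 0.0233) and Rbfox3, the NeuN antigen, −0.89 ± 0.21 (n = 2, adjusted p = 0.0368). In proliferating cells 1 rose, Gap43 of growing axons, at 1.52 ± 0.53 (n = 4, adjusted p = 0.0341), and 0 fell, with a median of −0.084. These calls held without proliferating replicates 3 and 4, where Dcx (−1.83, adjusted p = 0.00518) and Elavl4 (−1.14, adjusted p = 0.0140) passed as lower in differentiating KO cells too.

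After withdrawal 6 of the 18 early neuronal genes were called higher and 1 fell in WT cells, against 7.41% and 6.59% of all genes. In KO cells 2 rose and 2 fell, against 7.68% and 6.74% of all genes. In WT cells Dcx, a microtubule protein of migrating neuroblasts, had the largest rise (5.15, adjusted p = 0.00212), and Syt1 (2.92, adjusted p = 0.00118), Rbfox3 (1.43, adjusted p = 0.00259), Tubb3 (2.07, adjusted p = 0.0103) and Elavl3 (1.91, adjusted p = 0.0350) rose as well. The other gene called higher, Stmn2, entered the test only through the 2 WT differentiating channels, and its signal there, at least 1.55-fold higher, is a description with no test. Sox3, a factor of progenitors, fell (−1.44, adjusted p = 0.00367). In KO cells Elavl3 (2.20, adjusted p = 0.0210) and Dcx (2.27, adjusted p = 0.0453) rose and Sox3 (−1.26, adjusted p = 0.00713) and Gap43 (−2.50, adjusted p = 0.0333) fell. Without proliferating replicates 3 and 4 Elavl3 passed in neither genotype (adjusted p = 0.227 and 0.201) and Sox3 in WT cells only (0.0478, against 0.0618 in KO), while Mapt passed as higher in WT cells (3.76, adjusted p = 0.0469) and Elavl4 as lower in KO cells (−1.35, adjusted p = 0.0329). For the difference between the KO effects, none of these 4 lists had a gene that passed. Its smallest values were those of Syt1 (−2.37, adjusted p = 0.0557) and Tubb3 (−1.28, adjusted p = 0.0938) among early neuronal genes, Id3 (2.04, adjusted p = 0.0557) and Id1 (2.21, adjusted p = 0.207) among repressors, Ebf3 (−2.33, adjusted p = 0.236) among related factors other than St18, and Tcf4 (−0.61, adjusted p = 0.231) and Tcf12 (−0.45, adjusted p = 0.517) among E proteins.

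**Figure D4:**
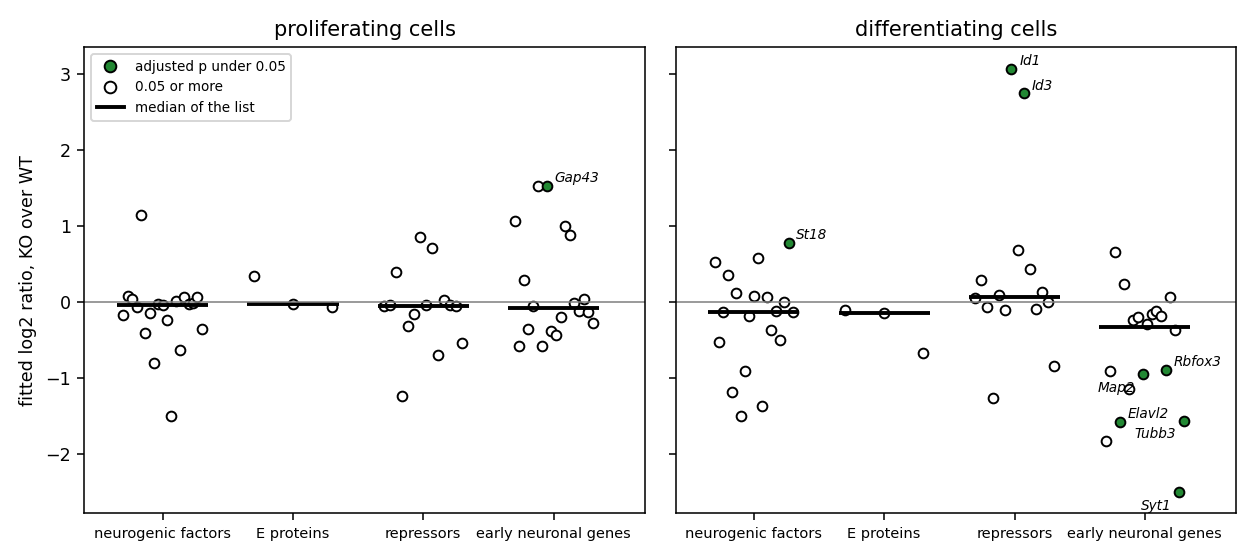
Fitted log2 ratio of KO over WT signal (vertical axis) of each tested gene in the 4 related lists (horizontal axis), in proliferating (left) and differentiating cells (right). Filled points passed limma's test over all genes and black lines are list medians. Id1 and Id3 lie highest in differentiating cells and Syt1 lowest.

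The genes whose levels followed those of the members most closely were named by Pearson's r over the 12 channels, as a description with no test, since both channels of an array share a hybridisation and each slide holds 1 condition. Neurod2 was most like Epha3, an ephrin receptor (0.96), and 4921511H03Rik (0.96). Myt1l was most like Mrpl50 (0.93), Clmp (0.92) and 9130430L19Rik (0.89). Bcl11b was most like the same 9130430L19Rik (0.95), then Gldc (0.87) and the receptor gene Kit (0.86). Neurog2 was most like Rnf113a2 (0.93) and the protocadherin genes Pcdhb9 (0.90) and Pcdhb3 (0.90).

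**Figure D5:**
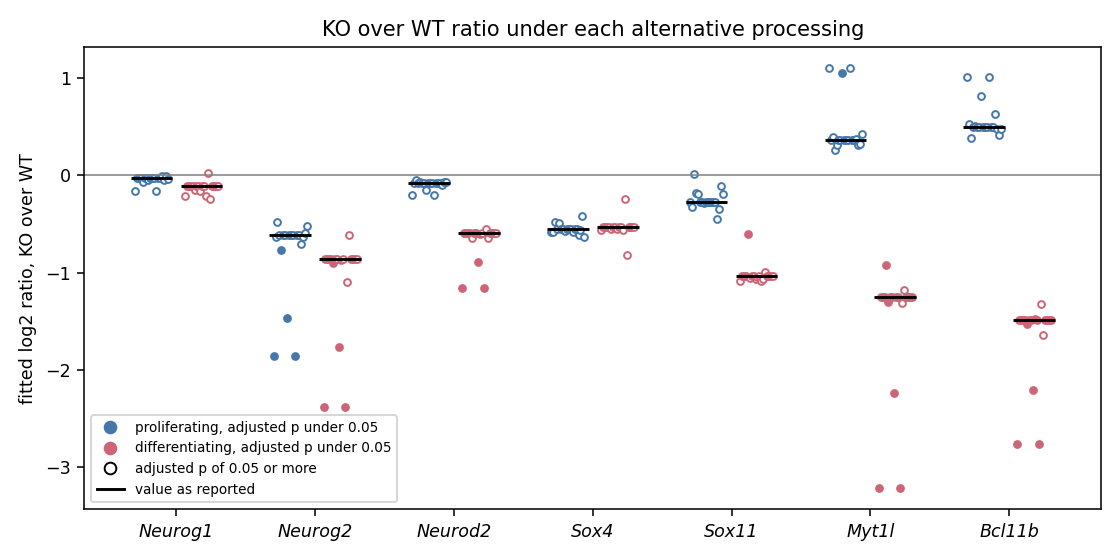
Fitted log2 ratio of KO over WT signal (vertical axis) of each member (horizontal axis) under every alternative processing, in proliferating (blue) and differentiating cells (red). Filled points passed limma's test, and black lines are the values reported above. The differentiating ratio of Myt1l lies between −3.22 and −0.92 and that of Bcl11b between −2.77 and −1.33.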

How the data were processed

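RNA of WT and KO cells was compared on 6 Agilent arrays with 2 colours, from 500 ng of total RNA in each dye, and the dye of each channel was taken from the labels. The deposited files hold spot intensity values (mean signal and median background per dye) from Agilent Feature Extraction 9.5.1.1, per the file headers. The deposited processed intensities had been background-subtracted and dye-normalized by that program, and per the file headers it writes a log10 ratio of Cy5 to Cy3. The authors' deposited value table gives these log10 ratios with the sign set as KO over WT. Probe positions are on mm7.

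Background correction by normexp with an offset of 50 and loess within arrays were run in limma 3.58.1 (R 4.3.3, statmod 1.5.0). Control spots (1639 per array) and 859 outlier-marked spots were left out. A gene was read at its brightest probe and tested if, on 2 or more of the 6 arrays, either channel was well above background there. Log2 ratios of all 18062 genes were fitted with lmFit and eBayes (1 coefficient per condition and a dye term), and single channels after Aquantile with limma's separate-channel fit (18050 genes, intraspot correlation 0.763). P-values are 2-sided with Benjamini-Hochberg adjustment over all genes, and the threshold was 0.05. If no array of a group had the probe well above background, each array's signal was raised to at least the lowest signal called so. A fold given as at least is a bound on these means and does not cover the spread between arrays. The number of arrays limits the precision. The fits were tested on simulated data.

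The text names all 7 members in every comparison, Dnmt3a, and from each related list every gene that passed, or those with the smallest p. For likeness it took up to 3 genes per member that passed, and 1 such gene is not reported here. The members and lists were chosen with earlier results of these data known. Protein sequences were not used here. Alternatives were other background corrections, normalizations, filters, probe rules, dye and block terms, array weights and arrays left out.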

Additional observations from a re-analysis of the deposited data

Results flagged for a closer look

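Myt1l and Bcl11b had KO over WT ratios above 0 on all 4 proliferating arrays and below 0 on both differentiating arrays. Neither passed in proliferating cells, where most Myt1l signals were not well above background. The differences of −1.61 for Myt1l and −1.99 for Bcl11b were tested as a contrast in limma and missed the threshold (adjusted p = 0.0507 and 0.0557).

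For Bcl11b, proliferating replicate 1 stood apart from the other 3 arrays. Its log2 ratio was 0.14 against 0.62, 0.63 and 0.62, a gap of 0.976 of the group's range by Dixon's criterion for groups of 4, above its 95% critical value. Chance flags about 1 in 20 such groups, and 21 were checked.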

How the results depend on the processing

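The count of members that passed was 0 in proliferating cells, and it was 1 with processed signals, the authors' value table or median centring and 2 (1 higher, 1 lower) with no offset. In differentiating cells it was 4, against 2 with the replicate number as a fixed replicate block and no dye term (Neurog2 and Neurod2 missed, adjusted p = 0.134 and 0.252), and between 0 and 4 with 1 array left out. It was 0 without differentiating replicate 1 or 2, where the lone array is assumed to vary like the others. For the difference between conditions it was 0, against 1 with processed signals, the value table or no offset and 2 with no dye term, array weights or the random replicate block (Myt1l 0.0446 and Bcl11b 0.0498 with the last). For withdrawal in WT cells it was 3, against 1 without proliferating replicates 3 and 4 and 0 to 3 with 1 array left out. In KO cells it was 0, against 1 with processed signals, the mean of probes or without proliferating replicates 3 and 4, 3 with the replicate block (Neurod2 higher at 0.30, Sox11 lower at −1.16 and Bcl11b lower at −0.70, adjusted p = 0.0492, 0.00368 and 0.00804) and 0 to 1 with 1 array left out.

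Signs turned in 6 of the members' results, at 11 values under alternatives, none of them a call. The Sox4 difference became −0.066 with median centring and −0.047 with the replicate block and no dye term or without proliferating 3 and 4, and ranged from −0.26 to 0.31 with 1 array left out (below 0 without proliferating 3 or differentiating 2). Sox11 in proliferating cells became 0.013 without replicates 3 and 4. With 1 array left out, Neurog1 in differentiating cells ranged from −0.24 to 0.023, its difference from −0.21 to 0.050 and Neurog2 in KO withdrawal from −0.13 to 0.43, each turned without differentiating 1. Myt1l in KO withdrawal ranged from −0.43 to 0.29, above 0 without proliferating 2 or differentiating 2.

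Counts over all genes moved too. In proliferating cells 172 (111 higher, 61 lower) became 278 with processed signals, 270 with the value table, 306 with no offset, 101 with no filter, 426 with the replicate block and no dye term (237 with no dye term alone), 0 with those arrays fitted alone and 0 to 171 with 1 array left out. Median centring gave 135, with 105 higher and 30 lower. In differentiating cells 557 became 285 with median centring, 2085 with array weights, 970 without proliferating 3 and 4, 1586 fitted alone and 0 to 534 with 1 array left out. For the difference 9 became 72, 81, 24, 153 and 19 with processed signals, the value table, no dye term, array weights and the random replicate block. It became 0 in the others but no offset, with 2178 genes at an unadjusted p under 0.05 in limma's fit as reported. For withdrawal 2528 (WT) and 2604 (KO) became 5774 and 6196 with the replicate block, 972 and 1212 without proliferating 3 and 4, and 161 to 3736 and 132 to 4635 with 1 array left out.

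The lists without proliferating replicates 3 and 4 were an alternative chosen after seeing the data. The labels do not say that replicate numbers mark shared cultures, so the block is an alternative only. A block for scan day could not be run, because each slide and scan holds 1 condition. Neurog2 and Myt1l lie near background, which limits the size of their ratios. Because Neurog2 passed the filter on dim probes through WT channels alone, its place in the counts of members that passed is a description.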
